A study of Mus musculus with 9 samples.

Results

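The alpha, beta and delta T cell receptor (TCR) genes described here were the gene models of the deposited expression table annotated as TCR variable (V), diversity (D), joining (J) or constant (C) genes on chromosomes 14 and 6 of the mouse genome. The rule used the annotation and the chromosome, and no measured value. It took 194 of 21883 gene models, 152 from the alpha and delta locus on chromosome 14 and 42 from the beta locus on chromosome 6. They comprised 103 V alpha (TRAV), 45 J alpha (TRAJ), 1 C alpha, 24 V beta (TRBV), 2 D beta (TRBD), 14 J beta (TRBJ) and 2 C beta (TRBC) models, with 1 V, 1 J and 1 C model of the delta chain. Pseudogenes made up 12 of the 194.

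RNA-seq was performed on invariant natural killer T (iNKT) cells from the thymus of C57BL/6 mice, in 9 libraries of 3 groups, with 3 libraries each. iNKT cells are T cells with innate-like responses that recognize lipids presented by CD1d, and they pass through maturation stages told apart by CD44 and NK1.1. WT stage 2 and WT stage 3 cells came from wild-type mice, whose age the series gives as 6 weeks. Med23-deficient stage 2 cells came from Med23 fl/fl mice carrying Cd4-Cre, which is driven by the Cd4 promoter and deletes the Mediator subunit Med23 from the double-positive thymocyte stage onwards. According to the methods, the floxed mice had been backcrossed to B6. The methods give a single age range, which includes that age, for the mice of all experiments, and no age for these libraries in particular. Whether animals were pooled was not given, so the p-values measure only the spread between these samples. Stage 2 and stage 3 cells bound the CD1d-PBS57 tetramer and were low for CD24 and high for CD44, with NK1.1 low at stage 2 and high at stage 3. The sort therefore selected cells by the very receptor that these genes encode. Med23 itself read 5.51, 5.15 and 6.74 FPKM across WT stage 2 and 4.80, 3.60 and 3.92 across Med23-deficient stage 2, a log2 fold change of -0.41 (SE 0.18, limma adjusted p = 0.552), so its transcript was still detected in the libraries labelled as deficient.

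A TCR chain is built when a V segment is joined to a J segment, with a D segment between them in the beta and delta chains, and the DNA between the joined segments is cut out. The joined exon is spliced to the constant exons after transcription, so J segments between the chosen J and the constant region stay in an intron. Most mouse iNKT cells share an invariant alpha chain, in which V alpha 14 (Trav11) is joined to J alpha 18 (Traj18). It pairs with a limited set of beta chains, mainly V beta 8 (Trbv13-1, Trbv13-2 and Trbv13-3), V beta 7 (Trbv29) and V beta 2 (Trbv1).

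FPKM, the unit of the table, scales the fragments on a gene by its transcript length and by all mapped fragments of the library, so levels can be compared between genes of different length where the models are longer than the sequenced fragments. For the TRAJ, TRBJ and TRBD models, of 12 to 66 bases, this does not hold, and their levels are read only within their own class. Lengths differ within a class too (29 to 66 bases for TRAJ), and the part of length in the levels was not tested. The depth of each library is unknown, as no counts were used here. The libraries had 15584 to 17333 gene models above 0, of which 108 to 141 were TCR members. In each group replicate 3 had the most members above 0 (141, 141 and 140, against 108 to 129 in the other libraries). From 62.2% to 71.9% of all FPKM in a library fell on the short gene model Gm23935. In a bulk sample, fewer cells with a given receptor cannot be told apart from less RNA of that receptor per cell.

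The V segment of the invariant alpha chain is present in the table as Trav11 (chr14:53519303-53519859, mm10) and Trav11d (chr14:52824357-52824912), copies in a duplicated stretch of the locus. The last 200 bases of the Trav11 V exon are printed because its copies carried most of the V alpha signal. Capitals mark bases that differ from the pseudogene Trav11n, a further copy.

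Trav11: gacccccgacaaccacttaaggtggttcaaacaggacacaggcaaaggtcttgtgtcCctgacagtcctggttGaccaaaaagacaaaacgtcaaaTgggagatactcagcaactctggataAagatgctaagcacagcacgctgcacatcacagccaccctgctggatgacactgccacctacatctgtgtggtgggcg

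Over the whole spliced transcript, Trav11 and Trav11d were identical for 342 bases, and Trav11 has 1 more base at its end. The reads kept for quantification could hit up to 2 loci. The division of the signal between these models is therefore uncertain, and their sum is the safer value. Reads hitting more than 2 loci were left out, and several other TRAV names likewise come in plain, d and n forms. The part of this filter in the levels and shares of the TRAV models was not tested. Trav11n differed from Trav11 at 8 of 343 bases and lay between 0 and 3.73 FPKM.

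The J segments on which the alpha chain results turn are printed next, in order along the chromosome towards Trac, the C alpha gene. They are Traj18 of the invariant chain, its neighbors Traj19 and Traj17 on either side, Traj22 as the highest model upstream of Traj18, and Traj6 and Traj2 downstream. Capitals mark the motif TTNGGNNNNGGN (N is any base). In frame it covers the codons of the Phe-Gly-X-Gly motif typical of J segments, but TTN also matches Leu codons.

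Traj22: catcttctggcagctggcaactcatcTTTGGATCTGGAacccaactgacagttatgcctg

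Traj19: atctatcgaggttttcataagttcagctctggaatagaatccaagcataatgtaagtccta

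Traj18: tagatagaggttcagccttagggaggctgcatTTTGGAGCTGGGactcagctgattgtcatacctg

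Traj17: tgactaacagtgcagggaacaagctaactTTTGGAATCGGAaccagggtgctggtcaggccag

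Traj6: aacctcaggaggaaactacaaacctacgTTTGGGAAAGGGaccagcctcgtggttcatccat

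Traj2: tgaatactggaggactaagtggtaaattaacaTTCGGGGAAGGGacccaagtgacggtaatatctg

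Searched on the coding strand only and without regard to reading frame, the motif was present in 35 of the 45 TRAJ models (77.8%). This count is of the base motif and not of Phe-Gly-X-Gly codons. It was absent from the 4 TRAJ pseudogenes and from 6 TRAJ genes, one of which is Traj19, next to Traj18. These sequences are the GENCODE transcripts on mm10.

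For the V beta 8 segments, the last 100 bases of each V exon are shown, with capitals where a segment differs from Trbv13-2. They set out how far the family differs in sequence next to the junction.

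Trbv13-2: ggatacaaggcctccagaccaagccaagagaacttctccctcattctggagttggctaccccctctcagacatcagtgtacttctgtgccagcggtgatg

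Trbv13-1: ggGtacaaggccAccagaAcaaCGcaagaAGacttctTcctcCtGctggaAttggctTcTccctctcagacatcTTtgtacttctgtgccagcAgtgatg

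Trbv13-3: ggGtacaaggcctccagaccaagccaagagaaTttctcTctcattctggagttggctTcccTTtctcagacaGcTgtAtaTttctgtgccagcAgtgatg

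Over their whole transcripts, Trbv13-2 was 90.6% identical to Trbv13-3 and 81.0% identical to Trbv13-1, with longest identical runs of 50 and 34 bases.

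The invariant V alpha segment stood far above every other V alpha model in all 9 libraries. Trav11d read 116.42, 121.78 and 95.45 FPKM across the WT stage 2 libraries, 159.48, 150.67 and 140.78 across WT stage 3 and 155.03, 149.00 and 144.98 across Med23-deficient stage 2. Trav11 read 101.38, 104.26 and 86.93 FPKM across the WT stage 2 libraries, 141.96, 137.70 and 131.59 across WT stage 3 and 135.37, 121.25 and 137.28 across Med23-deficient stage 2. For both models the WT stage 2 libraries were the lowest 3 of the 9, without overlap with either other group. Summed, they gave 209 ± 23.2 FPKM in WT stage 2, 287 ± 14.6 in WT stage 3 and 281 ± 10.1 in Med23-deficient stage 2 (mean ± SD, n = 3 each).

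The differences of Trav11 and Trav11d stayed below a 2-fold change. For Trav11 the log2 fold change, here and throughout on the log2(FPKM + 1) scale, was 0.49 in WT stage 3 against WT stage 2 (SE 0.10, limma adjusted p = 0.0800) and 0.43 in Med23-deficient against WT stage 2 (SE 0.10, limma adjusted p = 0.223). For Trav11d these values were 0.44 (SE 0.12, limma adjusted p = 0.169) and 0.43 (SE 0.11, limma adjusted p = 0.258). Both comparisons use the same 3 WT stage 2 libraries, so they are not independent of each other.

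The other 101 TRAV models together summed to between 55.3 and 93.4 FPKM in a library, and between 42 and 63 of them were above 0. The highest single model among them reached between 3.05 and 9.79 FPKM, depending on the library. Averaged over the 9 libraries, Trav11d was at 137 FPKM and Trav11 at 122 FPKM, while the next models, Trav8-1 and Trav14n-3, were at 3.10 and 2.77 FPKM. Only 12 of the 103 TRAV models were above 0 in all 9 libraries, and 45 were above 0 in 3 libraries or fewer.

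As a share of the summed TRAV FPKM, Trav11 and Trav11d made up 79.8%, 70.8% and 69.2% in WT stage 2, 81.5%, 82.3% and 77.7% in WT stage 3, and 76.9%, 75.3% and 77.0% in Med23-deficient stage 2. The groups overlapped in both comparisons. An exact 2-sided permutation test of 3 against 3 libraries cannot give a p below 0.1, and for these shares it gave p = 0.2 (WT stage 3) and p = 0.4 (Med23-deficient), or 0.8 and 0.914 after Benjamini-Hochberg adjustment over the 16 share tests.

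**Figure D1:**
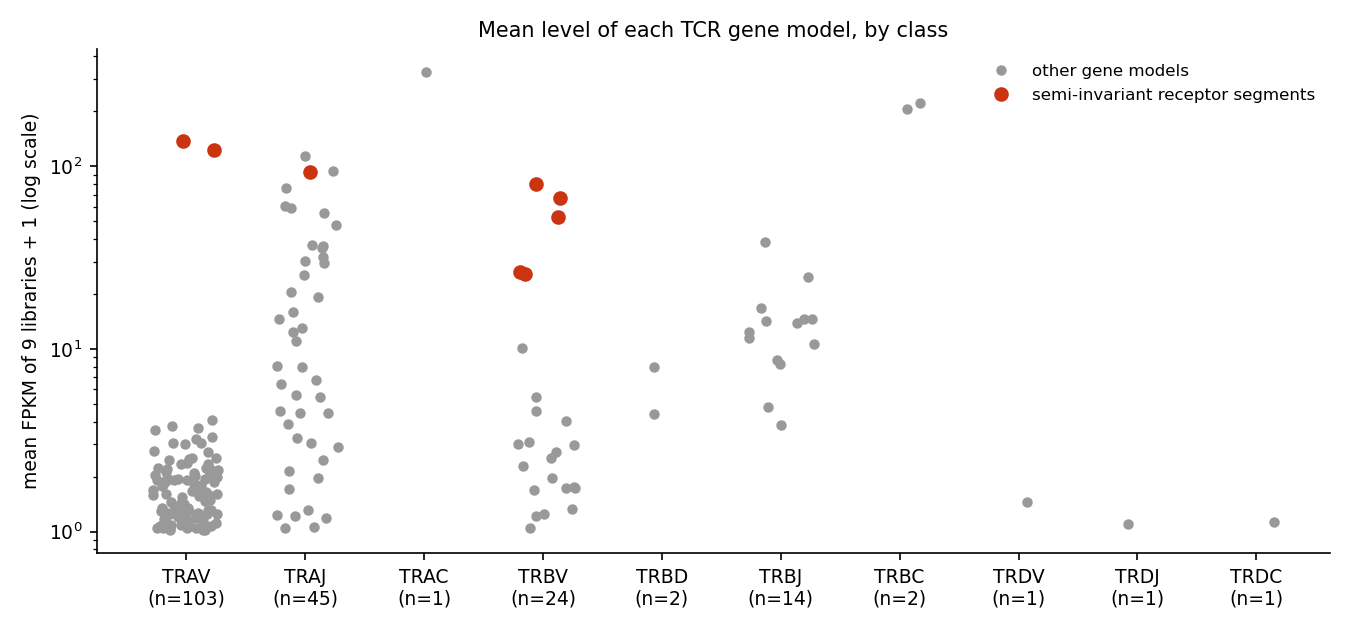
Mean FPKM of the 9 libraries plus 1, on a log axis, for each of the 194 gene models, grouped by class (n, number of models); each point is a gene model, spread sideways at random. Trav11 and Trav11d (red) are separated from the other TRAV models, the 5 red TRBV models lie above the other TRBV models, and Traj18 (red) lies among other TRAJ models.

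Traj18 did not stand apart from the other J alpha models in the way Trav11 did from the other V alpha models. Traj18 (chr14:54200777-54200842) read 50.00, 52.28 and 106.47 FPKM across the WT stage 2 libraries, 75.67, 104.47 and 117.50 across WT stage 3 and 93.84, 124.91 and 105.95 across Med23-deficient stage 2. WT stage 2 replicate 3 was about as high as the other groups, so the groups overlapped. Its log2 fold change was 0.57 (SE 0.33, limma adjusted p = 0.539) in WT stage 3 and 0.71 (SE 0.30, limma adjusted p = 0.542) in Med23-deficient stage 2, both against WT stage 2. Without WT stage 2 replicate 3 the former was 0.92 (limma adjusted p = 0.172), and it was 0.38 without replicate 1 of that group. Without WT stage 2 replicate 3 the latter was 1.06 and passed the fold and p thresholds used for the counts (limma adjusted p = 0.126).

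By mean over the 9 libraries Traj18 (92.3 FPKM) ranked after Traj9 (113 FPKM) and Traj12 (93.2 FPKM) among the TRAJ models and before Traj6 (74.6 FPKM) and Traj22 (59.7 FPKM). The ranges of these first 3 models overlapped widely across libraries: Traj9 spanned 72.91 to 176.72 FPKM and Traj12 spanned 60.07 to 142.27 FPKM. Traj18 made up between 7.36% and 12.2% of the summed TRAJ FPKM of a library, with group means of 8.83% in WT stage 2, 9.85% in WT stage 3 and 9.71% in Med23-deficient stage 2 (exact 2-sided permutation test, p = 0.6 in both comparisons).

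TRAJ models on the 2 sides of Traj18 differed in level. All 16 models on the side of the constant region, from Traj17 at 0.998 kb to the last model at 18.04 kb, were above 0 in all 9 libraries. Their means over the 9 libraries ran from 5.42 FPKM (Traj5) to 113 FPKM (Traj9), with a median of 35.1 FPKM. Of the 28 models on the far side, away from Trac, 11 were above 0 in all 9 libraries, and the median of the means was 3.15 FPKM. The side of the constant region also holds the shortest TRAJ model (29 bases), and the part of length in this difference was not tested.

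Within the far side, models near Traj18 were higher than distant ones. The 8 models within 7 kb of Traj18, a limit chosen after the values were seen, were above 0 in all 9 libraries and had a median of 12.8 FPKM, with Traj22 the highest. Traj22 read 46.93, 35.48 and 71.31 FPKM across the WT stage 2 libraries, 29.83, 64.30 and 93.13 across WT stage 3 and 40.54, 58.99 and 96.93 across Med23-deficient stage 2. Of the 20 models farther away, 3 were above 0 in all 9 libraries, none reached a mean of 10 FPKM, and the median was 1.67 FPKM. The same order of sides held in each library: the median of the 16 models next to Trac was 22.6 to 48.5 FPKM, against 1.05 to 5.54 FPKM for the 28 models of the far side.

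The library kit captures RNA without a poly(A) tail as well, and a TRAJ model of 29 to 66 bases can receive fragments of the spliced receptor or of unspliced transcripts across the locus. The table does not separate these sources, and their part in the TRAJ levels was not tested.

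**Figure D2:**
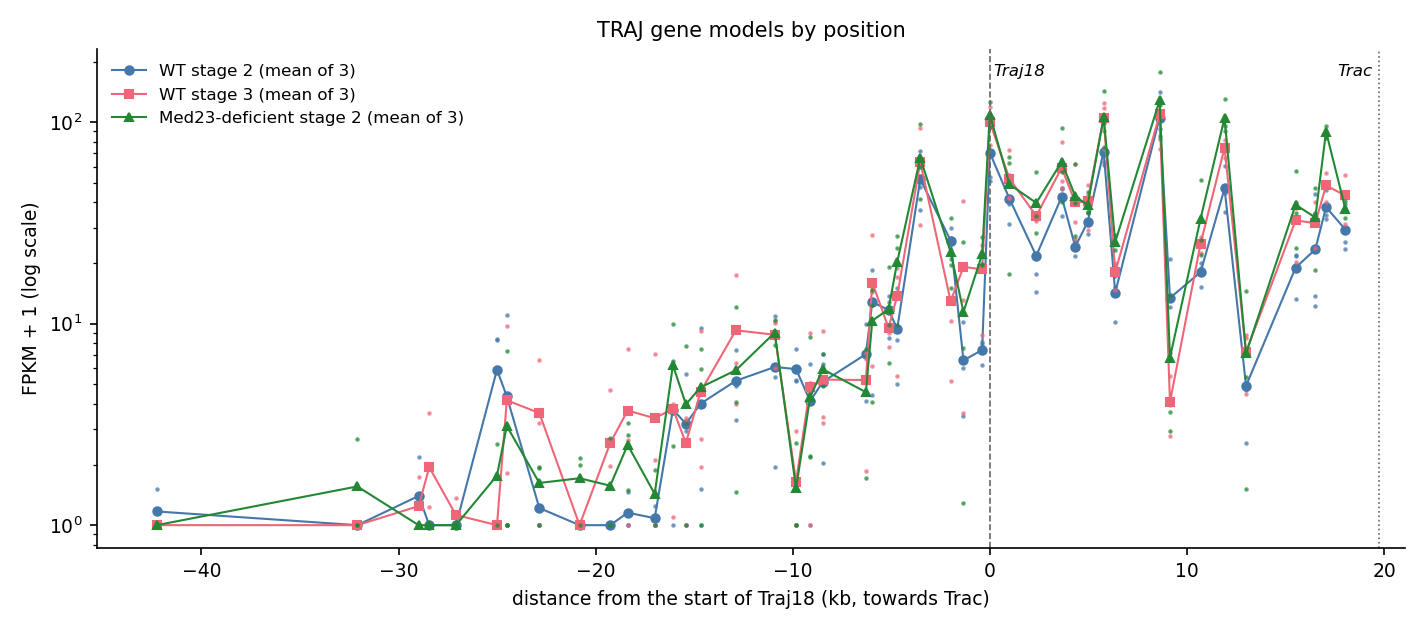
FPKM plus 1 (log axis) of the 45 TRAJ models against the distance of each model's start from that of Traj18 (kb), with Trac to the right (dotted line); lines join group means (n = 3) and small dots are single libraries. The 16 models between Traj18 (dashed line) and Trac lie mostly above 10, while those more than 7 kb to the left lie mostly below it, in all 3 groups.

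Traj19, the neighbor of Traj18 that lacks the J motif, was higher in both other groups than in WT stage 2. It starts 391 bases before Traj18 and read 6.92, 7.07 and 5.23 FPKM across the WT stage 2 libraries, 7.77, 21.52 and 23.54 across WT stage 3 and 18.58, 25.97 and 18.68 across Med23-deficient stage 2. All WT stage 2 libraries were below all others. Its log2 fold change was 1.20 (SE 0.41, limma adjusted p = 0.276) in WT stage 3 and 1.57 (SE 0.18, limma adjusted p = 0.0511) in Med23-deficient stage 2. With 1 library left out, the WT stage 3 value passed the fold and p thresholds in 1 of 6 fits, the one without WT stage 3 replicate 1, the lowest of its group. Traj17, on the other side, was at 30.09, 38.20 and 53.65 FPKM in WT stage 2 and overlapped with both other groups, which spanned 41.05 to 72.06 FPKM and 16.66 to 66.16 FPKM.

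Further towards Trac, Traj6 and Traj2 were higher in every Med23-deficient library than in every WT library. Traj2 read 45.25, 33.44 and 32.01 FPKM across the WT stage 2 libraries, 48.38, 39.29 and 54.90 across WT stage 3 and 82.43, 89.35 and 94.97 across Med23-deficient stage 2. Its log2 fold change in Med23-deficient against WT stage 2 was 1.26 (SE 0.15, limma adjusted p = 0.0511). Traj6 read 43.58, 34.65 and 59.47 FPKM across the WT stage 2 libraries, 65.78, 75.38 and 80.27 across WT stage 3 and 88.95, 94.45 and 129.28 across Med23-deficient stage 2, with a log2 fold change of 1.18 (SE 0.23, limma adjusted p = 0.166) in Med23-deficient against WT stage 2. Without WT stage 2 replicate 2 this value was 0.999 and no longer passed the 2-fold threshold.

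Summed over the 16 models between Traj18 and Trac, Med23-deficient stage 2 was at 742, 721 and 1027 FPKM and WT stage 2 at 484, 465 and 641 FPKM, with 663, 639 and 829 FPKM in WT stage 3. Med23-deficient and WT stage 2 did not overlap (exact 2-sided permutation test, p = 0.1, the smallest it can give; 0.3 after adjustment over 24 tests of sums and ratios chosen after the values were seen). Of the FPKM of all TRAJ models other than Traj18, these 16 held 77.0%, 74.5% and 77.4% in WT stage 2, 82.0%, 77.7% and 75.9% in WT stage 3 and 81.3%, 80.1% and 79.9% in Med23-deficient stage 2. The Med23-deficient libraries were higher by a mean of 4.15 percentage points without overlap (exact 2-sided permutation test, p = 0.1; 0.533 after adjustment over the 16 share tests). In each group the sum was highest in replicate 3, the library with the most members above 0, and the part of this in the sums was not tested.

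The constant gene Trac (chr14:54220521-54224206), which every alpha chain uses, read 288.67, 288.74 and 264.67 FPKM across the WT stage 2 libraries, 376.23, 351.49 and 284.58 across WT stage 3 and 392.28, 364.97 and 329.99 across Med23-deficient stage 2. The Med23-deficient libraries lay above the WT stage 2 libraries without overlap, by less than 2-fold (log2 fold change 0.37, SE 0.10, limma adjusted p = 0.301). In WT stage 3 the log2 fold change of Trac was 0.26 (SE 0.13, limma adjusted p = 0.484). Relative to Trac, the summed Trav11 and Trav11d FPKM was 0.754, 0.783 and 0.689 in WT stage 2, 0.801, 0.820 and 0.957 in WT stage 3 and 0.740, 0.740 and 0.855 in Med23-deficient stage 2. WT stage 3 was above WT stage 2 without overlap, where the exact test gave p = 0.1 (0.3 adjusted over the same 24 tests).

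The delta chain, made by gamma delta T cells, was at or near 0. Trdc (chr14:54142851-54148868), its constant gene, read 0, 0.25 and 0 FPKM across the WT stage 2 libraries, 0, 0.28 and 0.11 across WT stage 3 and 0, 0.38 and 0.14 across Med23-deficient stage 2. It made up at most 0.104% of the summed FPKM of Trdc and Trac. Trdv2-2 was above 0 in 2 libraries (1.84 and 2.30 FPKM, both replicate 3) and Trdj1 in 1 library (0.85 FPKM).

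The 5 V beta segments usual in iNKT cells were the 5 highest of the 24 TRBV models. Averaged over the 9 libraries they were Trbv13-2 (79.0 FPKM), Trbv29 (66.2 FPKM), Trbv13-1 (51.5 FPKM), Trbv1 (25.5 FPKM) and Trbv13-3 (24.7 FPKM), and the next model, Trbv12-2, was at 9.09 FPKM. The last pair of these 5 differed by less than their spread. Together the 5 held between 82.3% and 95.6% of the summed TRBV FPKM of a library.

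Trbv13-2, the V beta 8.2 segment, read 70.90, 81.59 and 54.19 FPKM across the WT stage 2 libraries, 87.42, 84.42 and 57.62 across WT stage 3 and 121, 87.82 and 66.33 across Med23-deficient stage 2. All 3 groups overlapped. Its log2 fold change was 0.14 (SE 0.22, limma adjusted p = 0.791) in WT stage 3, where it turned to -0.02 without WT stage 2 replicate 3, and 0.38 (SE 0.25, limma adjusted p = 0.718) in Med23-deficient stage 2.

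Trbv29, the V beta 7 segment, was lower in WT stage 3. It read 74.75, 81.39 and 65.06 FPKM across the WT stage 2 libraries, 49.70, 56.10 and 38.28 across WT stage 3 and 90.43, 68.28 and 72.17 across Med23-deficient stage 2. Every WT stage 3 library was below every other library, with a log2 fold change of -0.62 against WT stage 2 (SE 0.16, limma adjusted p = 0.162), short of a 2-fold change. In Med23-deficient stage 2 it was 0.06 (SE 0.14, limma adjusted p = 0.902), which turned to -0.07 on the TPM scale.

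Trbv13-1, the V beta 8.3 segment, read 60.14, 63.59 and 62.25 FPKM across the WT stage 2 libraries, 35.11, 52.18 and 33.97 across WT stage 3 and 46.89, 54.86 and 54.62 across Med23-deficient stage 2. WT stage 2 had the highest 3 values of the 9. The log2 fold change was -0.63 (SE 0.17, limma adjusted p = 0.176) in WT stage 3 and -0.25 (SE 0.09, limma adjusted p = 0.437) in Med23-deficient stage 2, both short of 2-fold.

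The remaining members of this set overlapped between all groups. Trbv1, the V beta 2 segment, read 25.36, 34.90 and 21.41 FPKM across the WT stage 2 libraries, 26.68, 10.24 and 21.10 across WT stage 3 and 37.64, 23.23 and 29.05 across Med23-deficient stage 2. Trbv13-3, the V beta 8.1 segment, spanned 22.88 to 27.43 FPKM in WT stage 2, 18.02 to 39.08 FPKM in WT stage 3 and 16.76 to 26.30 FPKM in Med23-deficient stage 2.

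Within the TRBV class, which needs no scaling between libraries, the 3 Trbv13 segments held 52.3%, 53.5% and 50.8% in WT stage 2 and 60.9%, 68.1% and 53.8% in WT stage 3. Trbv29 held 24.7%, 25.8% and 23.7% in WT stage 2 and 18.7%, 23.2% and 18.8% in WT stage 3. Both sets of libraries were separated without overlap, Trbv13 higher by a mean of 8.75 percentage points and Trbv29 lower by 4.48 (exact 2-sided permutation test, p = 0.1 each, 0.533 adjusted). Without WT stage 3 replicate 2, the library at 68.1%, the Trbv13 difference was 5.17 percentage points. The 3 Trbv13 segments did not move alike. Trbv13-2 alone held 23.4%, 25.9% and 19.7% in WT stage 2 and 33.0%, 35.0% and 28.3% in WT stage 3. In Med23-deficient stage 2 it held 34.0%, 30.2% and 22.7%, overlapping with both WT groups. The Trbv13-2 share was not tested. The FPKM of Trbv13-1 was lower in WT stage 3, as given above. In Med23-deficient stage 2 the mean shares were 52.8% for Trbv13 and 24.5% for Trbv29, and both overlapped with WT stage 2 (exact 2-sided permutation test, p = 0.9 and 0.8). Trbv1 held between 4.24% and 11.1% of a library's TRBV FPKM, with overlap between all groups.

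**Figure D3:**
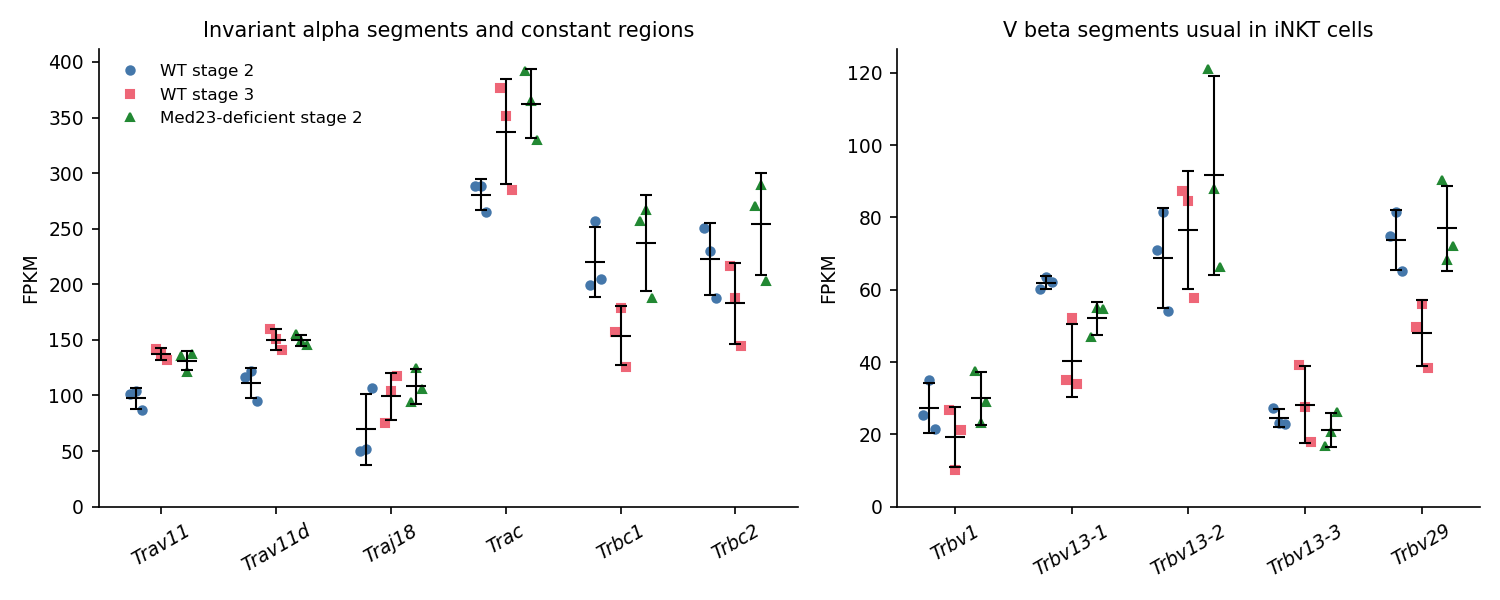
FPKM of the invariant alpha segments and the constant regions (left) and of the V beta segments usual in iNKT cells (right); points are libraries, horizontal bars the mean and whiskers the SD (n = 3 per group). The WT stage 2 libraries are lowest for Trav11 and Trav11d, and the WT stage 3 libraries are lowest for Trbv29 and Trbc1.

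All 14 J beta models had a mean of at least 1 FPKM over the 9 libraries, and 11 were above 0 in every library. Trbj2-6, annotated as a pseudogene, was the highest, with 38.6 ± 5.74 FPKM in WT stage 2, 31.6 ± 7.89 in WT stage 3 and 42.0 ± 18.8 in Med23-deficient stage 2 (mean ± SD, n = 3). Next was Trbj2-2 with a mean of 23.8 FPKM over the 9 libraries. The D beta models, 12 and 14 bases long, were above 0 in every library, Trbd1 at 3.4 to 13.5 FPKM and Trbd2 at 1.1 to 6.4 FPKM.

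The 7 models of the Trbj1 cluster summed to 37.2, 32.3 and 77.1 FPKM in WT stage 2, 46.9, 54.9 and 72.6 FPKM in WT stage 3 and 94.2, 82.1 and 114 FPKM in Med23-deficient stage 2. The Med23-deficient libraries lay above all WT libraries, WT stage 2 replicate 3 being the nearest (exact 2-sided permutation test against WT stage 2, p = 0.1; 0.3 adjusted). The Trbj2 cluster overlapped, with 88.8, 84.3 and 117 FPKM in WT stage 2, 91.6, 88.0 and 130 FPKM in WT stage 3 and 127, 98.1 and 213 FPKM in Med23-deficient stage 2. As for TRAJ, replicate 3 was the highest library of its group for both clusters.

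Summed, the C beta genes were lower in WT stage 3 than in WT stage 2 without overlap, at 373, 366 and 269.7 against 450.3, 487 and 393 FPKM, whereas the mean of Trac was higher. Trbc1 (chr6:41538218-41539881) read 199.23, 256.67 and 205.03 FPKM across the WT stage 2 libraries, 157.01, 178.39 and 125.49 across WT stage 3 and 257.18, 266.86 and 188.04 across Med23-deficient stage 2. WT stage 3 lay below WT stage 2 without overlap (log2 fold change -0.52, SE 0.17, limma adjusted p = 0.246). Trbc2 (chr6:41546730-41548352) read 251.06, 229.85 and 187.69 FPKM across the WT stage 2 libraries, 216.43, 187.65 and 144.19 across WT stage 3 and 270.54, 289.46 and 202.80 across Med23-deficient stage 2, with overlap throughout. Trbc1 and Trbc2 were 81.7% identical and shared a run of 259 identical bases, so their division is uncertain, and Trbc1 held between 42.0% and 52.8% of their sum.

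The ratio of the summed Trbc1 and Trbc2 FPKM to Trac FPKM, chosen after the values were seen, does not depend on scaling between libraries. It was 1.56, 1.68 and 1.48 in WT stage 2, 0.993, 1.04 and 0.948 in WT stage 3 and 1.35, 1.52 and 1.18 in Med23-deficient stage 2. WT stage 3 lay below both other groups, without overlap, and its mean was 0.631 times that of WT stage 2 (exact 2-sided permutation test, p = 0.1, the smallest possible; 0.3 after adjustment over 24 tests). Med23-deficient and WT stage 2 overlapped (p = 0.2 by the same exact test). The ratio of summed TRBV to summed TRBC FPKM was between 0.523 and 0.756 in all 9 libraries and overlapped between groups.

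**Figure D4:**
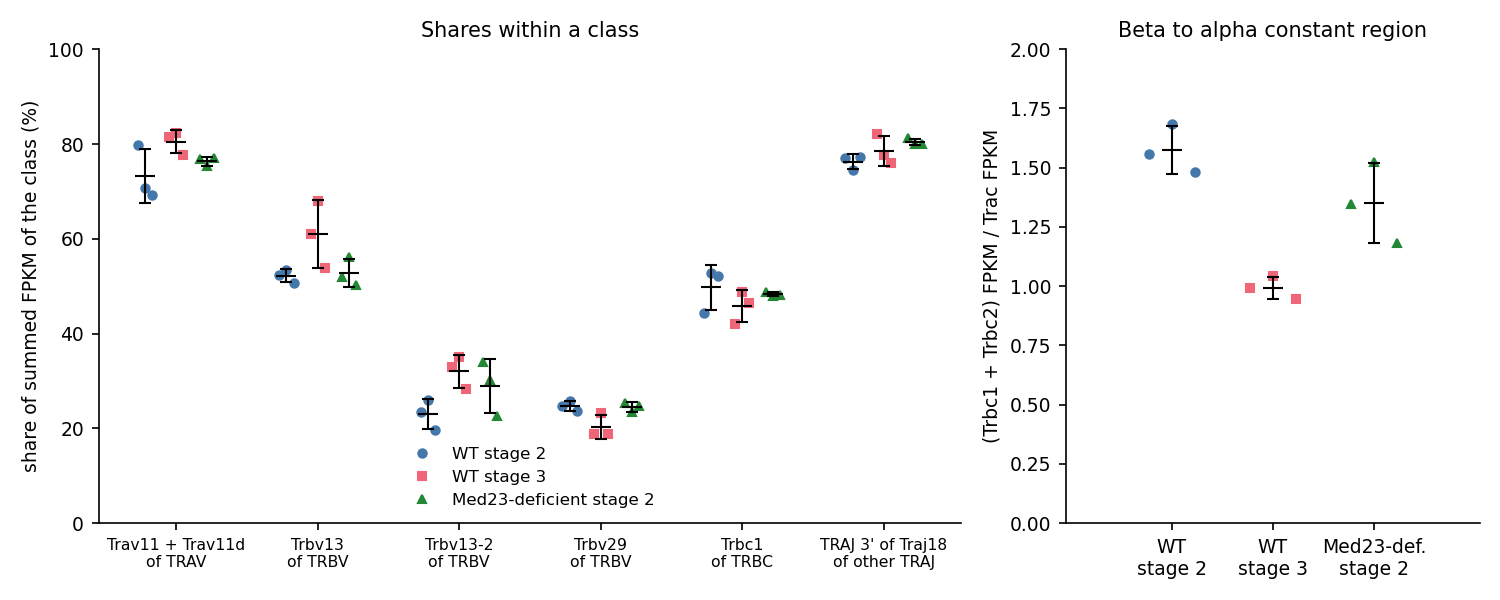
Shares of summed FPKM within a class (left, %) and the ratio of the C beta genes to Trac (right) in each library; points are libraries, horizontal bars the mean and whiskers the SD (n = 3 per group). The ratio is 0.948 to 1.04 in WT stage 3 and 1.48 to 1.68 in WT stage 2.

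The whole set of members was then counted against thresholds used by the study, a fold change of at least 2 with an unadjusted p of at most 0.05, in limma fits across all gene models above 0 in at least 1 of the 6 libraries compared. In WT stage 3 against WT stage 2, 7 of the 189 members tested passed (3.7%, against 3.6% of all 20689 gene models). A share near the background is no result about the members. Of these 7, 4 were higher (2.12%, against 1.7%) and 3 lower (1.59%, against 1.9%), a split that depends on scale, since on the TPM scale 6 passed, 2 higher and 4 lower. Leaving out WT stage 3 replicate 1 raised the count of 7 to 13, and leaving out replicate 3 or replicate 2 of WT stage 2 raised it to 12 or 11. At a limma adjusted p of at most 0.05, 1 member passed (0.529%, against 1.67% of all gene models). The groups did not overlap for 21 members (11.1%, against 17.8%), 12 of them higher (6.35%, against 7.36%) and 9 lower (4.76%, against 10.4%).

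The members higher in WT stage 3 were Traj19, Trav12-1 and 2 further V alpha models, Trav15n-2 and Trav15d-2-dv6d-2. Trav12-1, the member with the adjusted p below 0.05 (0.0472, limma), was at 0 in each WT stage 2 library and read 4.34, 1.58 and 3.59 FPKM in WT stage 3, and no fold is given. Trav15n-2 was likewise listed at 0 in WT stage 2 and read 3.26, 0.49 and 1.22 FPKM across WT stage 3. Trav15d-2-dv6d-2 was listed at 0 in WT stage 2 and read 2.94, 0.19 and 1.03 FPKM across WT stage 3. With 1 library left out, Trav12-1 passed in 6 of 6 fits and Trav15n-2 in 5, all but the one without WT stage 3 replicate 1. Traj19 and Trav15d-2-dv6d-2 passed in 1 of 6 each, without WT stage 3 replicate 1 and without replicate 2 of that group. Of these 4 members, Trav12-1 alone also passed in the Ballgown-style model.

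The members lower in WT stage 3 were Traj29, Traj8 and Trbv4. Traj29 read 4.17, 4.23 and 6.46 FPKM across WT stage 2, 0, 0 and 1.94 across WT stage 3 and 0, 1.57 and 0 across Med23-deficient stage 2. Traj8, annotated as a pseudogene, read 6.13, 11.06 and 20.05 FPKM across WT stage 2 and 1.78, 2.96 and 4.52 across WT stage 3, with log2 fold change -1.63 (SE 0.45, limma adjusted p = 0.183). Trbv4 read 2.72, 1.33 and 3.19 FPKM across WT stage 2 and 0.56, 0 and 0.92 across WT stage 3, and lost the call without WT stage 3 replicate 2. None of these 3 passed in the Ballgown-style model.

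By class, the median log2 fold change in WT stage 3 was 0.45 for the 43 TRAJ models tested, 0.51 for the 16 between Traj18 and Trac, 0.45 for the 14 TRBJ models, 0.00 for the 101 TRAV models and -0.50 for the 24 TRBV models, beside -0.01 for all gene models tested. Of the TRBV models 19 had a value below 0 and 5 above, of the TRAJ models 34 above and 9 below. These medians describe the classes and were not tested.

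In Med23-deficient against WT stage 2, both thresholds were met by 12 of 191 members (6.28%, beside 2.11% of all 20674 gene models), 10 higher (5.24%, against 0.798%) and 2 lower (1.05%, against 1.32%). By limma 0 members passed an adjusted p of 0.05 (0.213% of all gene models did), as in a Ballgown-style linear model (0 members), and 24 had an unadjusted p of at most 0.05 (12.6%, against 9.58%). The groups did not overlap for 24 members (12.6%, against 14%), 20 of them higher (10.5%, against 5.63%) and 4 lower (2.09%, against 8.37%). That first count of 12 was 21 without WT stage 2 replicate 3, of which 19 were higher, and 8 without WT stage 2 replicate 1.

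Among the 10 higher members were the J alpha models Traj2, Traj6 and Traj19 given above and Traj36, a low pseudogene model that read 0, 0 and 0.46 FPKM across WT stage 2 and 0.50, 1.80 and 2.21 across Med23-deficient stage 2. They also held the J beta models Trbj1-2, Trbj1-5 and Trbj1-7, all of the Trbj1 cluster. Trbj1-5 read 4.93, 7.13 and 9.42 FPKM across the WT stage 2 libraries, 11.48, 10.81 and 21.09 across WT stage 3 and 14.22, 14.98 and 24.90 across Med23-deficient stage 2 (log2 fold change 1.22 against WT stage 2, SE 0.29, limma adjusted p = 0.224). Trbj1-7 read 3.73, 0 and 7.53 FPKM across WT stage 2 and 20.16, 11.36 and 10.73 across Med23-deficient stage 2, without overlap.

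Trbj1-2 overlapped, with 5.60, 2.33 and 12.17 FPKM in WT stage 2 and 18.37, 11.09 and 20.00 FPKM in Med23-deficient stage 2. The other higher members were V alpha models. Trav12-1 was listed at 0 in WT stage 2 and read 1.62, 3.98 and 5.67 FPKM across Med23-deficient stage 2, and Trav15n-2, also at 0 in WT stage 2, read 2.21, 2.15 and 0.72 FPKM. Trav9-2 read 0, 0.12 and 0.33 FPKM across WT stage 2 and 4.98, 2.76 and 0.40 across Med23-deficient stage 2.

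With 1 library left out, Trav9-2 passed in 1 of 6 fits, the one without Med23-deficient stage 2 replicate 3, and Traj36, Trbj1-2 and Trbj1-7 in 2 of 6 each. Trbj1-5 lost the call without Med23-deficient stage 2 replicate 3.

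The lower members were Traj29 and Trbv16. Trbv16 read 3.76, 3.39 and 3.14 FPKM across WT stage 2 and 0, 0 and 2.80 across Med23-deficient stage 2, and it passed in 1 of 6 fits with 1 library left out (without Med23-deficient stage 2 replicate 3). By class, the median log2 fold change was 0.38 for the 43 TRAJ models, 0.61 for the 16 between Traj18 and Trac, 0.82 for the 14 TRBJ models, 0.02 for the 102 TRAV models and -0.04 for the 24 TRBV models, beside -0.01 for all gene models tested. All 14 TRBJ models had a value above 0.

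**Figure D5:**
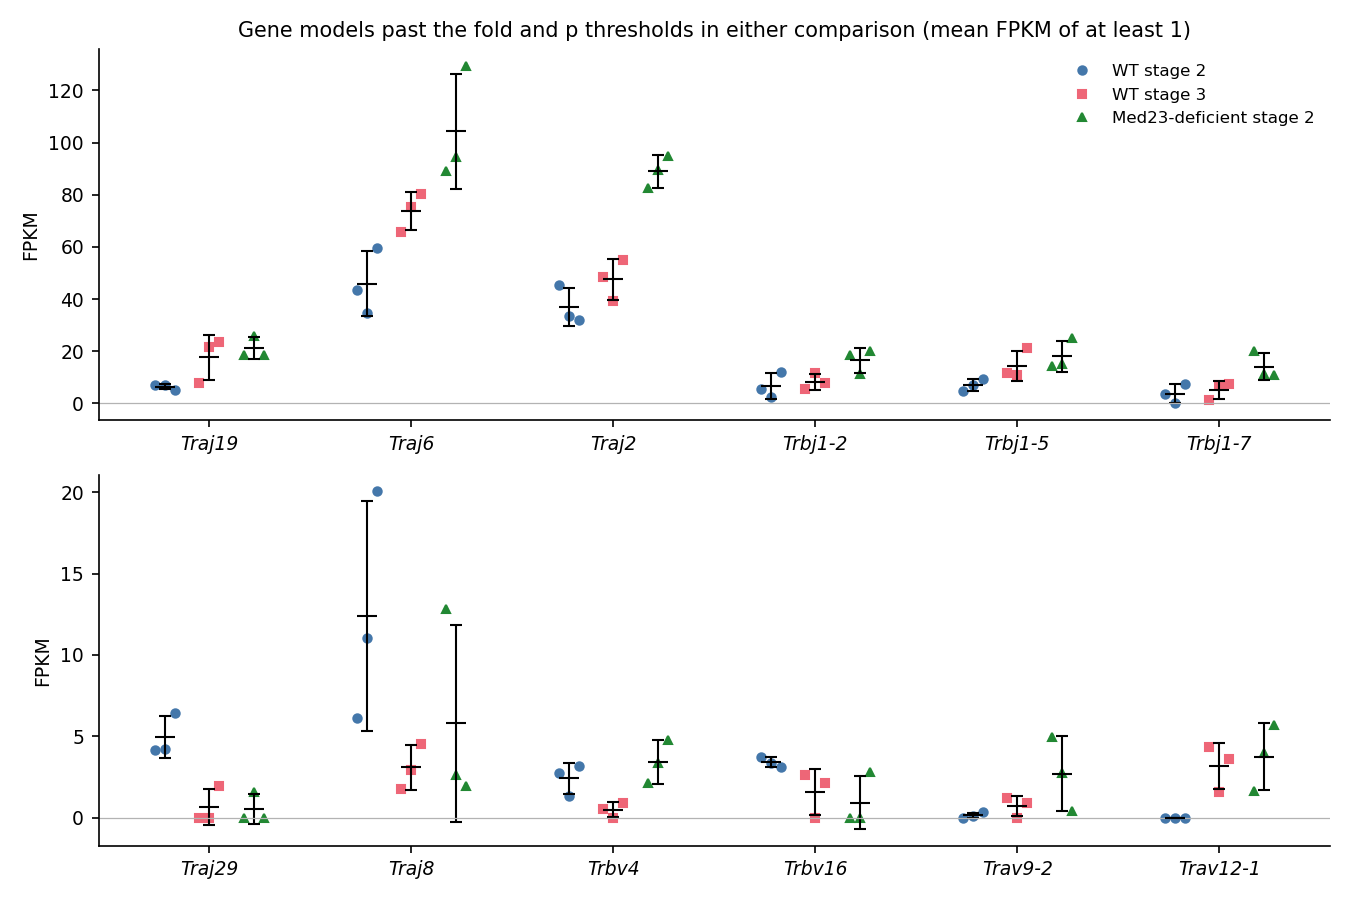
FPKM per library of the 12 gene models that passed the fold and p thresholds in either comparison and had a mean of at least 1 FPKM over its 6 libraries; horizontal bars are means and whiskers the SD (n = 3 per group). Traj2, Traj6 and Trbj1-7 are highest in all 3 Med23-deficient libraries, and Traj29 is highest in the WT stage 2 libraries.

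The genes that rearrange the TCR loci did not pass the thresholds in either comparison (0 of 12 each in limma and in the Ballgown-style model). Of all gene models, 3.6% passed by limma in WT stage 3 and 2.11% in Med23-deficient stage 2. A count of 0 among 12 genes is therefore no result about them. Rag1, which cuts the segments, was between 0.15 and 1.58 FPKM over the 9 libraries, its partner Rag2 between 0 and 0.26 FPKM, and Dntt, which adds bases at the junctions, between 0 and 1.83 FPKM. Unadjusted limma p values of at most 0.05 were found in WT stage 3 for Xrcc6 and Hmgb2 and in Med23-deficient stage 2 for Xrcc5 and Hmgb2. All were lower than in WT stage 2 by less than 2-fold. These are 2 of 12 in each comparison, beside 13.2% and 9.58% of all gene models.

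Of the 5 genes whose products assemble with the TCR chains, 0 passed in either comparison in limma or the Ballgown-style model. With 3.6% and 2.11% of all gene models passing by limma, this too is no result about them. By limma, 1 (Cd247) had an unadjusted p of at most 0.05 in WT stage 3 and 0 in Med23-deficient stage 2. Of all gene models, 13.2% and 9.58% did. Cd3e was between 110 and 138 FPKM in all libraries. Cd247, the zeta chain, read 27.74, 30.48 and 29.59 FPKM across the WT stage 2 libraries, 17.78, 18.37 and 11.97 across WT stage 3 and 29.22, 32.36 and 26.05 across Med23-deficient stage 2, with WT stage 3 lower without overlap (log2 fold change -0.85, SE 0.17, limma adjusted p = 0.0850). Ptcra, the partner of the beta chain before alpha rearrangement, did not exceed 0.08 FPKM.

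Markers of other cells were measured in the same libraries. Their counts stand beside the 3.6% of all gene models that passed the thresholds in WT stage 3 and 2.11% in Med23-deficient stage 2. Of 10 double-positive thymocyte genes, 1 passed the thresholds in WT stage 3 (Themis, lower) and 0 in Med23-deficient stage 2, and their summed FPKM was 12.9 to 14.2 in WT stage 2, 6.29 to 8.45 in WT stage 3 and 9.70 to 12.2 in Med23-deficient stage 2. Themis read 7.60, 3.39 and 6.37 FPKM across WT stage 2 and 0.53, 0.10 and 0.45 across WT stage 3. The means of Cd8a, Cd8b1, Cd24a and Cd1d1 were also lower in WT stage 3. Those of Rag1, Rag2, Dntt, Ptcra and Arpp21 were higher. Cd8a did not exceed 1.64 FPKM and Cd24a 0.72 FPKM, whereas Cd8b1 reached 3.05 FPKM and Cd1d1 5.97 FPKM. The 3 B cell genes in the table summed to at most 0.51 FPKM. The 6 myeloid genes in the table summed to 10.01 to 20.96 FPKM, mostly from Cst3, with Csf1r at or below 0.12 FPKM, and 1 of them, Fcgr3, passed in WT stage 3 (higher).

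Of 7 genes linked to gamma delta T cells, 3 passed as lower in WT stage 3 (Sox13, Cd163l1 and Blk). In Med23-deficient stage 2, 5 passed as lower (Tcrg-C1, Tcrg-C2, Tcrg-C4, Cd163l1 and Blk). Of all gene models, 1.9% and 1.32% passed as lower. The gamma constant genes Tcrg-C1, Tcrg-C2 and Tcrg-C4, on chromosome 13, did not pass in WT stage 3 (log2 fold change -0.15, 0.05 and -0.36). The sum of the 7 genes was 309 to 337 FPKM in WT stage 2, 260 to 301 in WT stage 3 and 8.72 to 9.11 in Med23-deficient stage 2. In both WT groups it was carried by these gamma constant genes. Trdc stayed at or below 0.38 FPKM in all libraries. The part of these cell markers in the V beta and C beta differences was not tested. Markers of iNKT cells themselves were present, with Zbtb16, which encodes PLZF, at 22.72 FPKM or more in every library and a sum over 10 genes of 355 to 601 FPKM.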

How the data were processed

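RNA-seq data of 9 libraries of sorted thymic iNKT cells (3 groups, 3 libraries each) were used. According to the methods and the processing notes, the authors trimmed reads with Trimmomatic 0.36, aligned them to mm10 with HISAT2, kept reads hitting at most 2 loci and quantified GENCODE vM12 genes with StringTie. The authors deposited FPKM values for 21883 gene models, rounded to 2 decimals, with replicates apart. No counts were used, so the depth is not known and counting error cannot be given. FPKM of the shortest models rest on few fragments.

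Here, log2(FPKM + 1) was tested with limma 3.58.1 (R 4.3.3; lmFit and eBayes with a trend) over the gene models above 0 in at least 1 of the 6 libraries of each comparison (20689 and 20674), with Benjamini-Hochberg adjustment over all of them. The pseudocount of 1 understates changes of low genes. Shares, sums and ratios were compared with exact 2-sided permutation tests in scipy 1.17.1 (Python 3.11.15). The fit was tested on simulated data. Sequences were GENCODE vM21 transcripts on mm10, in which all 194 members have the coordinates of the table. The promoter sequences at hand matched 0 members.

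Named were the invariant receptor segments and constant genes, up to 5 highest models per class, up to 10 members per direction that met both thresholds at an average of 1 FPKM or more, the neighbors of Traj18 and fixed gene lists. Other models are named because of their values: Trav11n, Trav15n-2, Trav15d-2-dv6d-2, Trav14d-3-dv8, Trav16n, Trav12d-2, Trav12n-2, Traj36, Traj5 and Trbv12-2. The members and lists were chosen with earlier results of these data known. Alternatives were other pseudocounts, filters, scalings and models, a replicate block and leaving out each library.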

Additional observations from a re-analysis of the deposited data

How the results depend on the processing

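Depth is unknown, so the counting error of the short, low models cannot be given. In WT stage 3 against WT stage 2 the count of 7 members past the fold and p thresholds was 13 with a pseudocount of 0.1, 11 with 0.01 and 12 on a TPM scale without Gm23935, and 8 to 13 with 1 library left out (13 without WT stage 3 replicate 1, 12 without WT stage 2 replicate 3, 11 without WT stage 2 replicate 2). The share of higher members was 57.1%, against 30.8% with a pseudocount of 0.1 and 33.3% on either TPM scale. The count at an adjusted p of 0.05, 1, was 2 with a pseudocount of 0.01, an upper-quartile scale or all 9 libraries in the fit, 0 on the TPM scale, with the replicate block and in the Ballgown-style model, and 0 to 2 with 1 library left out. In Med23-deficient against WT stage 2 the count of 12 was 19 with a pseudocount of 0.01 and 8 to 21 with 1 library left out. The adjusted count of 0 was 2 with a pseudocount of 0.1, 3 with 0.01, 2 with the filter on low values, and 1 with an upper-quartile scale or all 9 libraries, and it stayed 0 with any library left out. The Ballgown-style model passed 9 members in each comparison, 1 and 7 of them shared with the limma calls. Trav12-1, Traj8 and Traj29 in WT stage 3 and Traj2, Traj19, Traj29, Trav12-1 and Trav15n-2 in Med23-deficient stage 2 passed with each library left out. The causes were not tested.

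Whether replicate numbers pair the samples was not settled, and the libraries were treated as unpaired except in the replicate block. Correlations of same-numbered deviations were 0.0845, 0.031 and 0.161 in the WT comparison, where every library correlated best with its own number. In the Med23-deficient comparison they were 0.0346, 0.00429 and 0.144, and not every library correlated best with its own number. The replicate block gave 8 and 12 members past the fold and p thresholds.

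Directions turned for small differences. In WT stage 3 the log2 fold change of Trbv13-3 was -0.0641 in the Ballgown-style model and -0.123 to 0.41 with 1 library left out, and that of Trbv13-2 was -0.0159 to 0.33 with 1 left out. In Med23-deficient stage 2, Trbv29 was -0.0725 and Trbc1 -0.0308 on the TPM scale, and the Ballgown-style model gave -0.0491 for Trbc1 and -0.101 for Trbc2. With 1 library left out Trbv1 spanned -0.0367 to 0.32 and Trbv29 spanned -0.0640 to 0.14 in that comparison. Shares that turned with 1 library left out, in percentage points, were Trbv1 (-1.93 to 1.12) and Trdc (-0.00952 to 0.0394) in WT stage 3. In Med23-deficient stage 2 they were Traj18 (-0.356 to 2.16), Trbv13 (-1.06 to 1.85), Trbv29 (-0.731 to 0.333), Trbv1 (-0.225 to 1.41), Trbc1 (-4.21 to 0.0453) and Trdc (-0.00763 to 0.0488). The other shares and the ratio of C beta to C alpha kept their direction with each library left out. Of these shares, several still moved by over 1.5 times: in WT stage 3, Trbv13 (5.17 to 12.3), Traj18 (0.290 to 2.30), the TRAJ models between Traj18 and Trac (0.531 to 3.60) and Trbc1 (-6.71 to -2.102), and in Med23-deficient stage 2, Trav11 with Trav11d (1.11 to 6.39). That ratio in WT stage 3 differed from WT stage 2 by -0.629 to -0.528.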

Other observations

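Some V alpha models outside the invariant receptor peaked in single libraries. Trav14n-3 and Trav14d-3-dv8 read 8.73 and 9.79 FPKM in WT stage 2 replicate 2 and at most 3.50 FPKM in any other library. Trav16n read 9.79 FPKM in WT stage 3 replicate 1 and at most 3.29 FPKM elsewhere. Of all pairs of models within a segment class that had signal, Trav12d-2 and Trav12n-2 were the one pair with values within 0.05 FPKM of each other in all 9 libraries.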
